A study of Mus musculus with 20 samples.

Results

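Chrm1, Chrm2, Chrm3, Chrm4, Chrna4, Chrna7, Chrnb2 and Ache encode the main acetylcholine receptors of mouse cerebral cortex and the enzyme that breaks acetylcholine down. These 8 genes of 21949 in the deposited expression table were chosen by symbol, with their values in these libraries known, so those values are a description and carry no p-value. The study set P301S tau transgenic mice against wild-type mice at 2 ages by RNA sequencing of dissected, frozen cerebral cortex. TG10M (10 months) and TG03M (3 months) carried Tg(Prnp-MAPT*P301S)PS19Vle, a human MAPT gene with the P301S mutation under the promoter of the prion protein gene Prnp. WT10M (10 months) and WT03M (3 months) were wild type. All 4 groups had the strain label (C57BL/6 x C3H)F1 and 5 libraries each, 20 in all. The labels do not say whether each library came from a different animal, so every error given here is the spread between libraries, which may be technical.

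Acetylcholine reaches the cortex mostly from neurons whose cell bodies lie outside it, in the basal forebrain. It acts there on muscarinic receptors, which signal through G proteins, and on nicotinic receptors, which are ion channels built of 5 subunits. The M1 receptor (Chrm1) and M3 receptor (Chrm3) couple to Gq and phospholipase C, whereas M2 (Chrm2) and M4 (Chrm4) couple to Gi and Go. M1 is the muscarinic receptor best known from the excitatory pyramidal neurons of the cortex.

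The 4 muscarinic genes are relatives, and their separate values rest on telling their reads apart. In GENCODE M21 (GRCm38), the coding sequences of the most expressed transcript of each were 57.1% to 64.8% identical between pairs. The longest run shared exactly between any pair was 29 bases, in Chrm1 and Chrm4. The 60 coding bases most alike in all 4 genes are given here 5′ to 3′ on the coding strand, because reads of the receptors are hardest to tell apart where the genes are most alike. They lie in an exon of each gene, in the part that encodes the second membrane-spanning helix, and capitals mark the 44 bases that are the same in all 4 receptors.
Chrm1, chr19:8678096-8678155, plus strand: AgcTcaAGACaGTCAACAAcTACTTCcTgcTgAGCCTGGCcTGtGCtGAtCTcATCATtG
Chrm2, chr6:36523367-36523426, plus strand: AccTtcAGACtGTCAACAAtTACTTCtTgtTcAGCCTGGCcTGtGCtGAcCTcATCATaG
Chrm3, chr13:9878650-9878709, minus strand: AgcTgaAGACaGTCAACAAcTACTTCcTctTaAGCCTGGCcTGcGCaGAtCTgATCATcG
Chrm4, chr2:91927430-91927489, plus strand: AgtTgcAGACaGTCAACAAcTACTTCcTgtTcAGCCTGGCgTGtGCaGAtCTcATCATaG
Even here, in the stretch most alike, 16 of the 60 bases differed in at least 1 of the 4 receptors.

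Values are FPKM, fragments scaled to transcript length and to library depth, summed over the transcripts of a gene, so that levels of different genes are compared per length. Judged from the FPKM steps of low genes, libraries held 22.5 to 30.1 M fragments. Prnp, whose promoter drives the transgene, stood at 695 to 841 FPKM in the 10 transgenic libraries and at 412 to 528 FPKM in the 10 wild-type libraries, so every library matched its genotype label. Slc17a7, the vesicular glutamate transporter of cortical excitatory neurons, was at 257 FPKM or more in every library. TG10M replicates 1 and 5 and WT10M replicate 5 stood apart on the first principal component of all tested genes, which held 23.9% of the variance: they scored 26.2, 30.9 and 29.3, while the other 17 libraries scored between -12.1 and 2.52. The chaperone gene Hsp90aa1 split the libraries in another way, at 13.9 to 20.5 FPKM in 7 libraries (those 3 and all of TG03M except replicate 1) against 532 to 687 FPKM in the other 13. Comparisons of TG03M with WT03M thus share this split in every gene, and its part in them was not tested. Differences without the 3 libraries that stood apart are given for Chrm1, and for the other genes where they moved by over 1.5 times or in direction. In whole tissue, fewer cells of a type and less RNA per cell cannot be told apart.

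All 8 genes were detected in every library and passed the filter of a mean of at least 0.5 FPKM that 13722 genes met. Averaged over the 20 libraries, Chrm1 had the highest level of the 8, with 28.7 FPKM, followed by Ache with 21.9 FPKM, Chrm3 with 19.0 FPKM and Chrm4 with 16.4 FPKM. Chrnb2 followed with 14.7 FPKM, Chrna7 with 9.34 FPKM, Chrm2 with 6.71 FPKM and Chrna4 with 6.52 FPKM. Chrm1 was above Ache in 19 libraries, and Ache above Chrm3 in all 20. Chrm2 and Chrna4 did not keep a fixed order, since Chrm2 was the higher in 14 libraries only, and Chrm4 exceeded Chrnb2 in 16. The annotated transcript of Chrm4 is 1440 bases long, of which 1437 are coding, so its level per length rests on almost no untranslated sequence, unlike those of the other 7 genes.

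**Figure D1:**
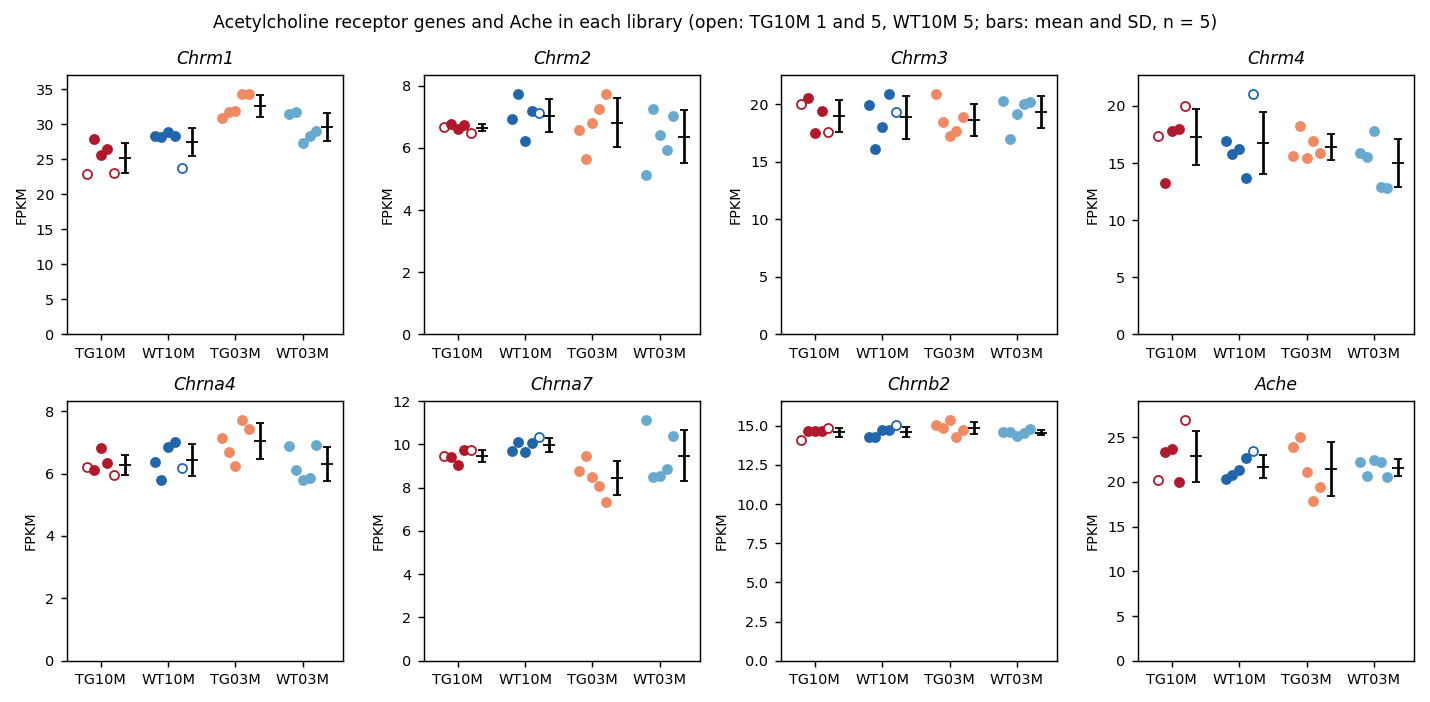
FPKM of each gene (vertical axes, from 0) in each of the 20 libraries, by group; open circles are TG10M replicates 1 and 5 and WT10M replicate 5, and bars are the mean ± SD (n = 5). Chrm1 is the gene whose TG10M libraries (22.9 to 27.9 FPKM) all lie below the TG03M libraries (30.9 to 34.3 FPKM).

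Chrm1 (ENSMUSG00000032773, chr19:8663789-8683587, plus strand, GRCm38), the M1 receptor, had the lowest level in old transgenic cortex and the highest in young transgenic cortex. In TG10M, replicates 1 to 5 had 22.9, 27.9, 25.6, 26.4 and 23.1 FPKM (mean 25.2 ± 2.18, SD, n = 5). In WT10M they had 28.3, 28.1, 28.8, 28.3 and 23.8 FPKM (27.5 ± 2.06). The TG10M libraries were thus all below 4 of the 5 WT10M libraries, and the remaining one, WT10M replicate 5, fell among them. In TG03M the values were 30.9, 31.7, 31.9, 34.3 and 34.3 FPKM (32.6 ± 1.59), and in WT03M 31.5, 31.7, 27.3, 28.3 and 29.0 FPKM (29.6 ± 1.98). The TG03M and WT03M libraries overlapped, and the TG10M and TG03M libraries did not.

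The difference of TG10M from TG03M in Chrm1 was -0.37 on the log2(FPKM + 0.5) scale (SE 0.06, 95% interval -0.51 to -0.24), which is a fold of 0.774 (0.705 to 0.850). Of all tested genes, 1.57% had TG10M libraries all below the TG03M libraries. Since the gene was chosen with this contrast known, its difference and interval are a description, as are those of the other 7 genes.

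The other differences of Chrm1 were smaller. TG10M differed from WT10M by -0.12 (-0.26 to 0.01), TG03M from WT03M by 0.14 (0.006 to 0.28) and WT10M from WT03M by -0.11 (-0.24 to 0.03), each with an SE of 0.06. The change with age in transgenic cortex minus the change with age in wild-type cortex was -0.26 (SE 0.09, -0.46 to -0.07). Transgenic and wild-type means lay in the opposite order at the 2 ages.

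Leaving out the 3 libraries that stood apart gave -0.29 for TG10M against TG03M, -0.06 for WT10M against WT03M and -0.23 for the interaction. The remaining TG10M libraries had 25.6 to 27.9 FPKM, the remaining WT10M libraries 28.1 to 28.8 FPKM, and the difference between these was -0.09. Among libraries with high Hsp90aa1, 3 TG10M libraries differed from 1 TG03M library by -0.21, and among those with low Hsp90aa1, 2 TG10M libraries differed from 4 TG03M libraries by -0.51. The 2 TG10M libraries with low Hsp90aa1 were replicates 1 and 5, which stood apart, while the 4 TG03M libraries did not. The value of -0.51 thus also holds that difference, and -0.21 rests on 1 TG03M library. Chrm1 was lower in TG10M in both sets, by amounts that differed more than 1.5 times, and these values have no test. At 3 months, all 5 WT03M libraries had high Hsp90aa1, and all TG03M libraries except replicate 1 had low Hsp90aa1. That 1 TG03M library, at 30.9 FPKM, differed from the 5 WT03M libraries by 0.06, against 0.14 with all TG03M libraries. The order of the TG03M and WT03M means and the interaction thus share this split. The part of either library difference in these Chrm1 results was not tested.

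Chrm1 has 3 annotated transcripts in the table. In 2 of them the annotation holds the whole coding sequence of 1380 bases, and ENSMUST00000177197 ends after its first 222 coding bases. ENSMUST00000035444 averaged 20.1 FPKM over all libraries, ENSMUST00000163785 7.03 FPKM and ENSMUST00000177197 1.59 FPKM. The most abundant had 18.1 ± 1.62 FPKM in TG10M, 19.2 ± 1.19 in WT10M, 22.9 ± 1.22 in TG03M and 20.1 ± 1.42 in WT03M (SD, n = 5). All 3 were lower on average in TG10M than in TG03M, by -0.34, -0.36 and -0.57 on the log2 scale. Its share of the gene's FPKM was 71.8% in TG10M, 69.9% in WT10M, 70.3% in TG03M and 68.1% in WT03M, with SDs of 1.06 to 2.36 percentage points. How reads were divided among transcripts is an estimate, and the small non-coding gene Gm22820 overlaps Chrm1 on the opposite strand over 329 exonic bases.

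**Figure D2:**
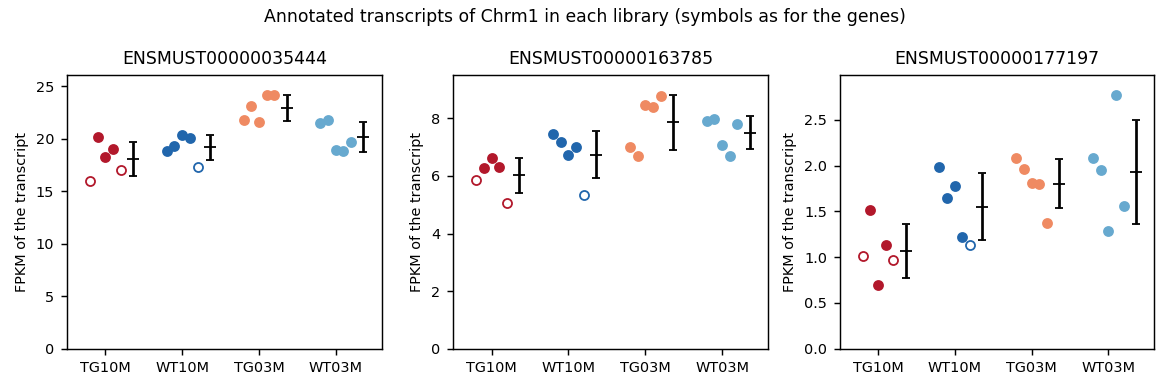
FPKM of the 3 Chrm1 transcripts (vertical axes, from 0) in each library, by group; open circles are TG10M replicates 1 and 5 and WT10M replicate 5, and bars are the mean ± SD (n = 5). The mean of each transcript is lower in TG10M than in TG03M.

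Chrm3 (ENSMUSG00000046159), the other Gq-coupled receptor, did not share this pattern of levels. The TG10M libraries held 17.6 to 20.5 FPKM (mean 19.0), the WT10M libraries 16.2 to 20.9 (18.9), the TG03M libraries 17.3 to 20.9 (18.7) and the WT03M libraries 17.0 to 20.3 (19.3). The groups overlapped in every comparison. Its difference between TG10M and TG03M was 0.03 (95% interval -0.12 to 0.18, or 0.918-fold to 1.13-fold). Most of its FPKM came from ENSMUST00000187510, with 81.6% in TG10M, 83.8% in WT10M, 83.2% in TG03M and 86.6% in WT03M.

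Chrm2 and Chrm4 are the Gi-coupled receptors. Chrm2 (ENSMUSG00000045613), known as an autoreceptor on cholinergic terminals, averaged 6.64 ± 0.117 FPKM in TG10M, 7.04 ± 0.542 in WT10M, 6.80 ± 0.785 in TG03M and 6.35 ± 0.853 in WT03M. The TG10M libraries lay closest together, between 6.46 and 6.76 FPKM. Chrm4 (ENSMUSG00000040495), abundant in striatal neurons, averaged 17.3 ± 2.45 FPKM in TG10M, 16.7 ± 2.71 in WT10M, 16.4 ± 1.17 in TG03M and 15.0 ± 2.10 in WT03M. It varied most among the 8 genes, with a coefficient of variation of 13.4%, and its highest library was WT10M replicate 5, with 21.1 FPKM. Its intervals were also the widest, reaching from -0.19 to 0.28 for TG10M against WT10M and from -0.17 to 0.30 for TG10M against TG03M. Chrm4 differed by 0.06 between TG10M and TG03M and by 0.15 between WT10M and WT03M, and these became -0.01 and 0.07 without the 3 libraries that stood apart. The mean of the remaining TG10M libraries was 16.4 FPKM and that of the remaining WT10M libraries 15.6 FPKM.

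Markers of striatal neurons, which express Chrm4, differed between these cortex libraries. The summed FPKM of 11 striatal neuron genes ran from 198 to 480 in TG10M, from 434 to 556 in WT10M, from 205 to 530 in TG03M and from 196 to 526 in WT03M. None of the 11 was at 0 in all libraries, and all 11 were lower on average in TG10M than in WT10M, as were 49.8% of all tested genes. None was called, that is, had a p under 0.05 in limma's moderated test after Benjamini-Hochberg adjustment over all genes, as 0.634% of the tested genes were. Across the 20 libraries, which share groups and ages, the log2 level of Chrm4 had a Pearson r of 0.43 and a Spearman rho of 0.29 with the log2 of this sum. Without the 2 libraries farthest from the median sum, r was 0.09, so the relation rests on those libraries. With the summed FPKM of 5 cholinergic neuron genes, r was 0.62 and rho 0.50, and r was 0.42 without the 2 farthest libraries. The part of striatal or cholinergic tissue in the Chrm4 levels was not tested.

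The 4 muscarinic receptors together had 68.1 ± 1.51 FPKM in TG10M, 70.1 ± 1.68 in WT10M, 74.5 ± 2.15 in TG03M and 70.2 ± 2.18 in WT03M. The highest TG10M sum, 70.6 FPKM, was below the lowest TG03M sum, 71.4 FPKM, so these groups did not overlap. Without the 3 libraries that stood apart, the TG10M mean was 68.9 FPKM and the highest TG10M sum was the same. Chrm1 made up 36.9 ± 2.73% of the sum in TG10M, 39.2 ± 3.4% in WT10M, 43.8 ± 1.43% in TG03M and 42.1 ± 2.16% in WT03M. The ratio of Chrm1 to Chrm3 was 1.33 ± 0.117 in TG10M, 1.47 ± 0.202 in WT10M, 1.76 ± 0.178 in TG03M and 1.54 ± 0.192 in WT03M. Chrm1 was the most abundant of the 4 in every library. These sums hold Chrm1 and carry its difference.

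**Figure D3:**
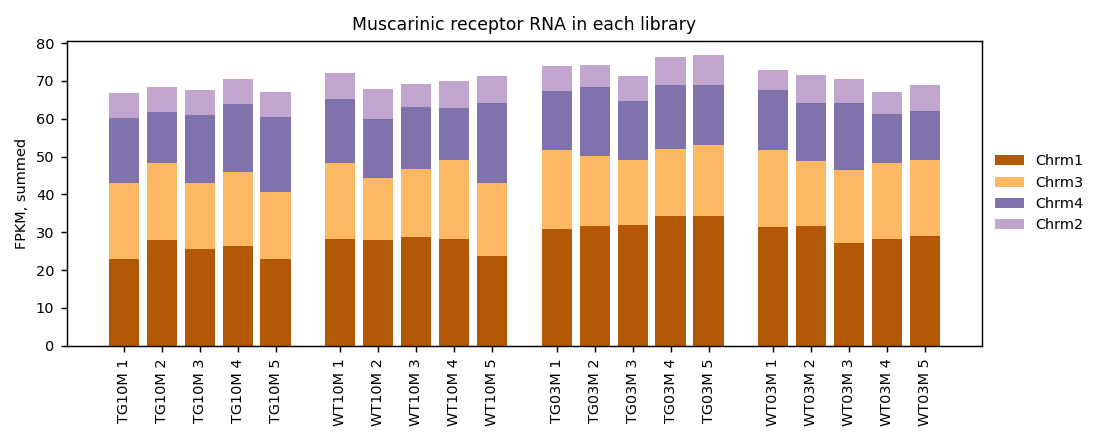
FPKM of Chrm1, Chrm3, Chrm4 and Chrm2 stacked for each of the 20 libraries, from 0. The stacks reach 66.9 to 76.8 FPKM, and Chrm1, at the bottom, is the largest piece in each.

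Of the nicotinic subunits, Chrna4 and Chrnb2 form the main high-affinity receptor of the brain, and Chrna7 forms receptors of its own. Chrna7 (ENSMUSG00000030525) had 9.46, 9.39, 9.05, 9.72 and 9.74 FPKM in TG10M replicates 1 to 5, and 9.69, 10.1, 9.62, 10.1 and 10.3 FPKM in WT10M. It had 8.75, 9.48, 8.51, 8.08 and 7.34 FPKM in TG03M, and 11.1, 8.51, 8.54, 8.87 and 10.4 FPKM in WT03M. The TG03M libraries were low on average but overlapped the other groups. TG10M differed from TG03M by 0.16 (0.01 to 0.31) and TG03M from WT03M by -0.16 (-0.31 to -0.007).

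Chrna4 (ENSMUSG00000027577) had 6.21, 6.10, 6.81, 6.34 and 5.97 FPKM in TG10M replicates 1 to 5, and 6.37, 5.78, 6.86, 7.01 and 6.18 FPKM in WT10M. It had 7.15, 6.71, 6.25, 7.72 and 7.42 FPKM in TG03M, and 6.87, 6.11, 5.78, 5.85 and 6.92 FPKM in WT03M. Chrna4 thus had its highest libraries in TG03M, as Chrm1 did, with overlap between all groups. TG10M differed from TG03M by -0.15 (-0.30 to -0.007) and TG03M from WT03M by 0.15 (0.005 to 0.30).

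Chrnb2 (ENSMUSG00000027950), the partner subunit, was the steadiest of the 8 genes. It averaged 14.6 FPKM in TG10M, 14.6 in WT10M, 14.9 in TG03M and 14.6 in WT03M, and all 20 libraries lay between 14.1 and 15.4 FPKM, a coefficient of variation of 2.08%. Its differences had the narrowest intervals of the set, from -0.08 to 0.07 for TG10M against WT10M and from -0.10 to 0.05 for TG10M against TG03M. The ratio of Chrnb2 to Chrna4 was 2.33 ± 0.128 in TG10M, 2.28 ± 0.169 in WT10M, 2.12 ± 0.230 in TG03M and 2.32 ± 0.182 in WT03M. Chrnb2 overlaps Adar, a gene on the opposite strand, over 1365 exonic bases, and reads from this overlap cannot be assigned without strand.

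Ache (ENSMUSG00000023328), acetylcholinesterase, averaged 22.8 ± 2.83 FPKM in TG10M, 21.7 ± 1.33 in WT10M, 21.4 ± 3.01 in TG03M and 21.6 ± 0.924 in WT03M. Its lowest and highest libraries were 20.02 and 26.9 FPKM in TG10M, 20.3 and 23.5 in WT10M, 17.8 and 25 in TG03M, and 20.5 and 22.4 in WT03M. The SD was thus larger in the transgenic groups at both ages, and no test of the spread was made. The interval of the difference between TG10M and WT10M ran from -0.11 to 0.25. Its main transcript, ENSMUST00000024099, held 67.2% of the FPKM in TG10M, 63.4% in WT10M, 63.7% in TG03M and 66.3% in WT03M.

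**Figure D4:**
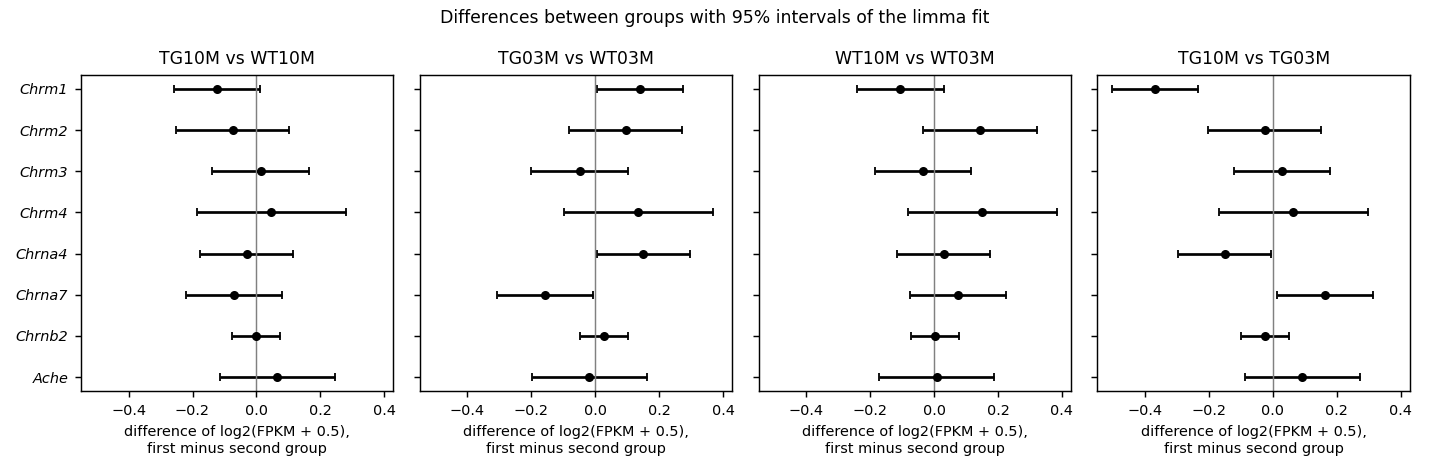
Differences between groups on the log2(FPKM + 0.5) scale (horizontal axes, first minus second group) for the 8 genes, with 95% intervals of the limma fit. The interval of Chrm1 in TG10M against TG03M, -0.51 to -0.24, is the one farthest from 0.

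Over the 8 genes, the median difference was -0.02 for TG10M against WT10M, 0.06 for TG03M against WT03M, 0.02 for WT10M against WT03M and 0.001 for TG10M against TG03M. The medians over all tested genes lay between -0.003 and 0.002. For the 7 genes other than Chrm1, the differences in these 4 comparisons ran from -0.16 to 0.16, and their intervals from -0.31 to 0.38. As folds, the intervals of those 7 genes ran from 0.808 to 1.31, which describes these libraries and sets no limit on the change. Without the 3 libraries that stood apart, the differences of Chrna4, Chrna7, Chrnb2, Ache, Chrm2 and Chrm3 moved by less than 0.03 on the log2 scale, and Ache in WT10M against WT03M and Chrnb2 in TG10M against WT10M and WT10M against WT03M, all within 0.01 of 0 before, changed sign. The comparisons share groups, so they are not independent of each other.

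Chrm1 levels were set beside markers of cortical excitatory neurons, the cells in which M1 is best known. The summed FPKM of 8 such markers (among them Slc17a7, Tbr1 and Camk2a) averaged 550 ± 60.9 in TG10M, 609 ± 83.6 in WT10M, 655 ± 48.5 in TG03M and 659 ± 44.8 in WT03M. Within TG10M the sum was 481 and 487 in replicates 1 and 5 and 588 to 603 in the other 3, and in WT10M it was 463 in replicate 5 and 622 to 672 in the other 4. The 3 libraries that stood apart were thus the lowest of all 20 both in this sum and in Chrm1. No marker of the 8 was at 0 in all libraries. Between TG10M and TG03M, 0 of the 8 were called (0.845% of the tested genes), and their median difference was -0.20. On average 7 were lower, as were 49.8% of all tested genes, and Emx1 was higher by 0.14. An unadjusted p under 0.05 was found for 3 of the 8, with no share over all tested genes to set beside it. Slc17a7 differed by -0.19 (limma adjusted p = 0.124), Tbr1, a transcription factor of deep-layer neurons, by -0.35 (adjusted p = 0.223), and the kinase gene Camk2a by -0.46 (adjusted p = 0.251). Without the 3 libraries that stood apart these became -0.12, -0.15 and -0.21, and the median of the 8 was -0.11.

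Across the 20 libraries, the log2 level of Chrm1 had a Pearson r of 0.83 and a Spearman rho of 0.78 with the log2 of this sum. Slc17a7, with a mean of 311.5 FPKM, and Camk2a, with 180.5 FPKM, weigh most in the sum. Taken singly, the markers had r with Chrm1 from -0.40 for Emx1 to 0.79 for Slc17a7, with 0.41 for Cux2 and 0.40 for Rorb. The libraries share groups, and r was 0.57 over the 17 libraries left without those that stood apart. Per 100 FPKM of the marker sum, Chrm1 had 4.59 ± 0.176 FPKM in TG10M, 4.55 ± 0.342 in WT10M, 4.99 ± 0.270 in TG03M and 4.49 ± 0.338 in WT03M. On this scale TG10M ran from 4.35 to 4.76 and TG03M from 4.63 to 5.37, so that the groups overlapped. The microglial sum of 6 markers was 221 to 267 FPKM in TG10M, 153 to 223 in WT10M, 158 to 189 in TG03M and 151 to 176 in WT03M, and none of the 6 was at 0 in all libraries. The part of cell composition in the Chrm1 difference was not tested.

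**Figure D5:**
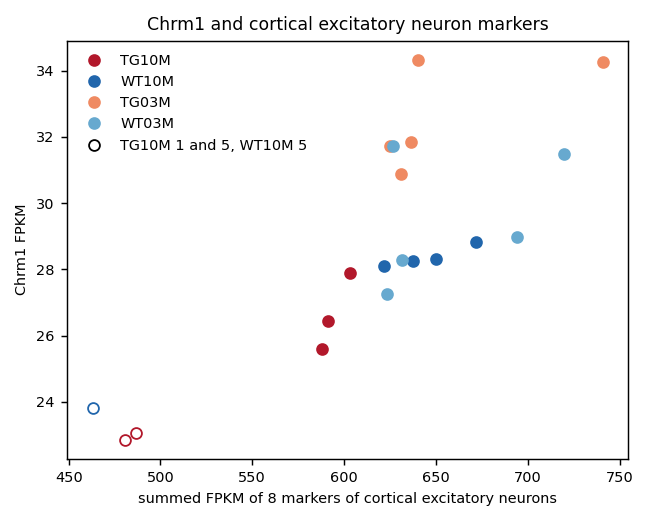
Chrm1 FPKM (vertical axis) against the summed FPKM of 8 cortical excitatory neuron markers (horizontal axis) in each of the 20 libraries; neither axis starts at 0. The open circles, TG10M replicates 1 and 5 and WT10M replicate 5, have the lowest values on both axes.

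The genes whose levels followed each receptor most closely were found by Pearson r over the 20 libraries among 12323 genes. For Chrm1 these were Hs6st1, a heparan sulfate sulfotransferase, with r = 0.94, Begain, a postsynaptic density protein gene, with 0.90, and Tpcn1, an endolysosomal channel gene, with 0.90. Without the libraries that stood apart, r was 0.88, 0.80 and 0.81. For the other muscarinic genes, the closest were Tmem216 for Chrm2 (r = 0.85), Scx for Chrm3 (0.85) and Gpr83, a receptor gene, for Chrm4 (0.82). For the nicotinic genes and the enzyme they were Arhgap35 for Chrna4 (0.80), Ptgr2 for Chrna7 (0.81), Asl for Chrnb2 (0.68) and Keap1 for Ache (0.81). The next 2 genes were Cdh19 and Srbd1 for Chrm2, Osbpl5 and Aifm3 for Chrm3, Fam151b and Zfp281 for Chrm4, Ndst1 and Bcl9l for Chrna4, Dok7 and Klhl21 for Chrna7, Cstf1 and Surf2 for Chrnb2, and Rhbdl1 and Wwp2 for Ache. None of the 8 genes was among the 3 closest of another. Among the 8, Chrm1 and Chrna4 had the highest r of any pair, 0.56, which includes differences between groups. For deviations from the group means their r was 0.40, and the highest was that of Chrnb2 and Ache, 0.59. These values are the top of a long list and describe these libraries only.

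The rest of the cholinergic pathway was listed as 50 genes in 6 groups, of which 36 passed the filter. Across the 36, 0 were called in TG10M against WT10M (0.634% of all tested genes), 1 in TG03M against WT03M (0.299%), 0 in WT10M against WT03M (0.0656%), 0 in TG10M against TG03M (0.845%) and 0 in the interaction (0.0364%). With 36 genes, shares of this size correspond to fewer than 1 gene in each comparison. The counts with an unadjusted p under 0.05 were 5, 3, 2, 4 and 2 in that order. The share of all tested genes with such a p is not given here, so these counts are not read as a result. The 1 called gene was Ly6e, from the group of 8 genes for assembly and modulation of nicotinic receptors, whose protein is a membrane-anchored relative of Lynx1. Ly6e averaged 114 ± 17.7 FPKM in TG03M and 77.4 ± 9.84 FPKM in WT03M, and its libraries, 95.1 to 139 against 65.7 to 91.9 FPKM, did not overlap, as was the case for 2.01% of all tested genes in this direction. It was higher by 0.55 (SE 0.11, limma adjusted p = 0.0375), and the call was lost when any one of TG10M replicate 3, WT10M replicates 2, 3 or 4, TG03M replicates 2 to 5, or WT03M replicates 1, 3, 4 or 5 was left out, with no filter on low values, with the replicate number as a block, and with transcripts tested one by one. All WT03M libraries had high Hsp90aa1, and all TG03M libraries except replicate 1 had low Hsp90aa1. That replicate had the lowest Ly6e of TG03M, 95.1 FPKM, and the part of this split in the Ly6e difference was not tested. At 10 months Ly6e had 91.6 ± 13.8 FPKM in TG10M and 78.8 ± 7.19 FPKM in WT10M, a difference of 0.21 (adjusted p = 0.404).

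Receptors outside the set were scarce. Chrm5, the remaining muscarinic receptor, averaged 0.486 FPKM and did not pass the filter, and 11 of 13 other nicotinic subunits did not pass it either. Chrna5, an accessory subunit, had 1.13 FPKM in TG10M, 1.18 in WT10M, 1.39 in TG03M and 1.34 in WT03M, and differed by -0.22 between TG10M and TG03M (adjusted p = 0.350). Chrnb1, best known from muscle, averaged 0.514 FPKM and differed by -0.22 between TG10M and WT10M (adjusted p = 0.467).

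Of the 7 genes of acetylcholine synthesis, transport and breakdown, 5 were tested. Chat, which makes acetylcholine, had 0.748 ± 0.367 FPKM in TG10M and 1.34 ± 0.427 FPKM in WT10M, a difference of -0.58 (limma adjusted p = 0.320). At 3 months Chat averaged 0.662 FPKM in TG03M and 0.798 FPKM in WT03M. WT10M was thus the high group, with 0.57 for WT10M against WT03M and 0.09 for TG10M against TG03M. Slc5a7, the choline transporter of cholinergic terminals, had 1.04 ± 0.457 FPKM in TG10M and 1.75 ± 0.412 FPKM in WT10M (-0.58, limma adjusted p = 0.319). Its means were 1.05 FPKM in TG03M and 1.09 FPKM in WT03M, so WT10M again stood above the other 3 groups. Prima1, which anchors acetylcholinesterase in neuronal membranes, had 0.699 to 0.949 FPKM in TG10M and 1.01 to 1.62 FPKM in WT10M. These Prima1 libraries did not overlap, as was the case for 2.38% of all tested genes in either direction. The Prima1 difference was -0.44 (SE 0.12, limma adjusted p = 0.120). Prima1 averaged 0.729 FPKM in TG03M and 0.986 FPKM in WT03M. Without the 3 libraries that stood apart, the differences were -0.63 for Chat, -0.67 for Slc5a7 and -0.50 for Prima1 (adjusted p = 0.322, 0.305 and 0.110 in limma). The summed FPKM of the 11 striatal genes, given above, was also lower on average in TG10M than in WT10M, and its part in these values was not tested.

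Downstream of the receptors, none of the 12 Gq pathway genes and none of the 9 Gi and Go pathway genes was called. Gnaq, the G protein subunit of M1 and M3, differed by -0.17 (limma adjusted p = 0.254) between TG10M and TG03M, and Kcnq3, a subunit of the potassium channel that muscarinic receptors close, by -0.16 (adjusted p = 0.255). Without the 3 libraries that stood apart these differences were -0.07 and -0.08. In the Gi and Go group, the adenylyl cyclase gene Adcy5 had 45.9 ± 8.36 FPKM in TG10M and 56.2 ± 2.90 FPKM in WT10M (-0.31, limma adjusted p = 0.354). Adcy5 averaged 42.65 FPKM in TG03M and 46.26 FPKM in WT03M, so WT10M was its high group (0.30 for WT10M against WT03M). The channel genes Kcnj9 and Kcnj3 differed by -0.17 (adjusted p = 0.373) and 0.12 (adjusted p = 0.434) between TG10M and WT10M. Outside these 2 pathways, in the group for assembly and modulation of nicotinic receptors, Lynx1 restrains these receptors. It had 130 ± 7.34 FPKM in TG10M and 116 ± 11.7 FPKM in WT10M (0.17, limma adjusted p = 0.241). Lypd6, of the same nicotinic group, differed by 0.32 between TG03M and WT03M (limma adjusted p = 0.484).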

How the data were processed

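RNA of dissected cortex was sequenced by the authors. Per the submitters' processing notes, CASAVA, TopHat2, Cuffdiff, DESeq2 and the builds GRCm38 and mm10 were used; for what step, in which version and with which strand setting was not recorded there. Values were deposited as FPKM per transcript. Here they were summed per gene (50660 transcripts, 21949 genes; 27 symbols turned into dates were restored), and genes with a mean of at least 0.5 FPKM were tested on log2(FPKM + 0.5), a scale that understates changes of low genes. FPKM are not counts, so limma 3.58.1 (R 4.3.3) was fitted with a trend, 1 mean per group and all 20 libraries, with Benjamini-Hochberg adjustment over 13722 genes and calls under 0.05. The test was checked on simulated data with independent noise in each gene, so the check does not cover libraries that deviate together, as those that stood apart did. Depth was estimated from FPKM steps; 78.9% to 93.3% of the low values used lay within 0.1 of a whole multiple.

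The 8 genes and all gene lists were chosen with earlier results of these data known. Genes named from the pathway lists are each called gene and the 3 of each list with the smallest p, except what is not reported here; for each receptor or enzyme gene, the 3 genes with the highest r, among genes of at least 1 FPKM without predicted gene models. Coding sequences are from GENCODE M21 and were aligned with MAFFT 7.526. Alternatives were other pseudocounts, filters and scalings, fewer samples in the fit, the replicate number as a block, transcripts and left-out libraries. The split by Hsp90aa1 (above 500 or under 25 FPKM) was added after seeing the data.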

Additional observations from a re-analysis of the deposited data

Results flagged for a closer look

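Among 32 groups of 5 libraries examined for a library far from the rest, 2 held one, and chance gives about 1 in 20. Chrm1 in WT10M replicate 5, at 23.8 FPKM, lay below the other 4 WT10M libraries by 0.856 of the group's range; this library also had the lowest excitatory marker sum. Chrnb2 in TG10M replicate 1, at 14.06 FPKM, lay below the other 4 TG10M libraries by 0.734 of a narrow range.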

How the results depend on the processing

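The Chrm1 difference between TG10M and TG03M ran from -0.41 to -0.29 over 29 alternative settings of the gene fit, from -0.41 to -0.34 without each library in turn, and was -0.37 with the replicate block. The labels do not say whether the replicate numbers pair the samples, and the main fit used no pairing. Same-numbered libraries deviated from their group means with r between -0.425 and 0.66 over 30 pairs, 5 of them above 0.1. The highest was for replicate 5 of TG10M and WT10M, both among the libraries that stood apart. Such an r cannot show whether samples were paired. Counts of called pathway genes were small and moved. In TG03M against WT03M the count of 1 (Ly6e) became 0 with no filter, with the replicate block and with transcripts in place of genes, and ranged from 0 to 1 without single libraries. In TG10M against TG03M the count of 0 became 1 with a pseudocount of 1, with no filter and with median centring, and ranged from 0 to 1 without single libraries. In TG10M against WT10M it ranged from 0 to 4, reaching 4 (Gnao1, Itpr1, Lynx1 and Prima1) without WT10M replicate 5. In that setting 1600 of the 13722 tested genes were called, against 87 in the main fit. The rise was thus not particular to the pathway genes. Gnao1 and Itpr1 are named after their values were seen. The causes were not tested.

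Splitting libraries by Hsp90aa1 moved 8 values by more than the SD between replicates, 2 of them for Chrm1 in TG10M against TG03M as given above. With high Hsp90aa1 and 1 TG03M library, Chrm3 gave 0.12 for TG03M against WT03M and -0.13 for TG10M against TG03M, and Ache 0.15 and -0.10. With low Hsp90aa1 and 1 WT10M library, TG10M against WT10M gave -0.17 for Chrm4 and -0.06 for Chrnb2. The spread of a single library can move a value by such amounts, so these are not read as an effect of the split.

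With 5 libraries a group, precision is limited: the 95% interval reached 1.31-fold for Chrm4 in WT10M against WT03M and 1.05-fold for Chrnb2 in TG10M against WT10M. Summing FPKM over transcripts inherits the authors' division of reads, which no value here checks.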
